A study of Mus musculus with 18 samples.

Results

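The genes described here are the interferon response genes, a list of 47 genes that are induced by interferon or carry its signal, matched to the count table by gene name. Of these, 45 have a row among the 32285 genes of the table, and Mx1 and Mx2 were not analysed here. RNA was measured in 18 libraries, 3 in each of 6 groups, from mouse bone marrow of the C57BL/6 strain. All were CD45.2+ cells called iLS in the labels and sorted by FACS, with the genotype label CD45.2(+). There were 3 kinds of cells, each with libraries labelled day 6 and libraries labelled day 14. They were controls (named Mock in the day 6 descriptions), cells carrying BRD9-NUTM1 (BN1), and cells carrying the AFF1 fusion AFF1-NUTM1 (AFFN1). The series is about NUTM1-rearranged leukemia, in which the NUTM1 gene is fused to another gene. The labels do not say how the fusions were introduced, from what the days are counted, or whether the 3 libraries of a group are separate animals or cultures. For that reason p-values below measure only the spread between libraries, which may be technical.

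Type I interferons bind a receptor built of the IFNAR1 and IFNAR2 chains. The kinases JAK1 and TYK2 at the receptor then activate STAT proteins, among them STAT2, which enters the nucleus with IRF9. There the complex binds the interferon-stimulated response element, a sequence with repeated GAAA blocks, and switches on many genes that detect or block viruses. In B-lineage progenitors of the bone marrow, as in most cells, many of these genes are kept at a basal level and rise further when interferon is present.

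The promoters of 5 genes are shown because the results below turn on them: Isg15 and Ifit1 for the day 14 libraries that stand apart, and Oas3, Bst2 and Gbp3 for the differences between the fusions or from control. Each is the 150 bases before a RefSeq transcription start (GRCm38.p6), 5′ to 3′ on the strand of the gene, and capitals mark GAAANNGAAA or its reverse complement TTTCNNTTTC. The start shown is the first of the gene with a match. Other genes named below, among them Oasl1, Herc6, Lgals3bp and Irf7, hold 0 matches in their promoter windows. Gbp3 has another start, whose window (chr3:142560106-142560405) holds 0 matches. Matches may overlap.
Isg15: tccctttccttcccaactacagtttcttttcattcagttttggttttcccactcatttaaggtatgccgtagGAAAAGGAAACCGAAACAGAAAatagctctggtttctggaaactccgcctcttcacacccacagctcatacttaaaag
Ifit1: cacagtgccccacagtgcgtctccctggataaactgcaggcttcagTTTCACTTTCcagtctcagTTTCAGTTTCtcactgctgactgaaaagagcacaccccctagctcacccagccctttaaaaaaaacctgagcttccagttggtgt
Oas3: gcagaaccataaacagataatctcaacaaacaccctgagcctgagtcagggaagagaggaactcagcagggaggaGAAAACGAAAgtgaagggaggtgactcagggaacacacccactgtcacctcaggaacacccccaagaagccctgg
Bst2: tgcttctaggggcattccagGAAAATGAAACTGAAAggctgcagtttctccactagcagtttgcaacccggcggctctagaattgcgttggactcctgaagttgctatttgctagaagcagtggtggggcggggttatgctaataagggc
Gbp3: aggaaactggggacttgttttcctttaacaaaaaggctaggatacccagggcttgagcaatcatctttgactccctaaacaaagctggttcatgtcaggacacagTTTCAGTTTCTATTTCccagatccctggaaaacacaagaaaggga
The Isg15 stretch lies on chromosome 4 (chr4:156200819-156200968, minus strand) and holds 3 overlapping matches, which begin between 78 and 66 bases before the start. The Ifit1 stretch (chr19:34640739-34640888, plus strand) holds 2, which begin 104 and 85 bases before it. The Oas3 stretch (chr5:120777660-120777809, minus strand) holds 1, at 75 bases. The Bst2 stretch (chr8:71537473-71537622, minus strand) holds 2, at 130 and 124 bases, and the Gbp3 stretch (chr3:142559894-142560043, plus strand) holds 2, at 45 and 39 bases.

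Of the 45 genes, 37 matched an entry of the RefSeq promoter table, which covers 250 bases before to 50 after each start. Oas2, Usp18, Zbp1, Dhx58, Rtp4, Parp9, Parp14 and Ifi27l2a have none. GAAANNGAAA on either strand was found in 18 of the 37 (48.6%), against 1079 of 27025 genes (3.99%). The shorter motif TTCNNNGAA, the core of the gamma-activated site, was found in 10 of the 37 (27.0%), against 2582 of 27025 (9.55%). A match is a run of letters and not a measured binding site. In the GENCODE M21 annotation of mm10, the Ifit genes Ifit2, Ifit3, Ifit3b and Ifit1 lie side by side between positions 34550694 and 34650009 of chromosome 19, and 5 Oas and Oasl genes lie on chromosome 5. Ifit3 and Ifit3b are 98.0% identical over 1697 aligned transcript bases, and Oas1a and its neighbour Oas1g are 97.5% identical over 1860, so how the counting split reads between such copies is uncertain.

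The libraries hold between 14.2 and 18.4 × 1e6 expected counts, so a level of 1 count per 1e6 (CPM) is about 14 to 18 reads. Levels below are CPM after TMM scaling within the libraries of 1 day unless stated, so levels of the 2 days are scaled separately. The defining leukocyte gene Ptprc (CD45) was present in every library. The T cell gene Cd3e did not pass 0.0733 CPM in any library. A list of 7 T and NK markers that includes Cd3e was not absent (CPM scaled over all 18 libraries). On day 6 it summed to 17.1 to 41.1 in control, 48.8 to 54.0 in BN1 and 34.1 to 44.4 in AFFN1. On day 14 it summed to 6.57 to 8.16, 14.0 to 20.8 and 19.0 to 46.6 in the same order. Nutm1 was at or near 0 reads in all 6 groups. The levels of Brd9 and Aff1 on day 6 were not called different from control in either fusion group, and the labels do not give the species of the fusion sequences, so these genes do not check the labels. The interferon genes themselves had almost no reads: 14 of 18 ligand genes had none in any library, and all 18 together had 26, of which 20 were from Ifnz. Ifnb1 had 1 read in all 18 libraries.

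**Figure D1:**
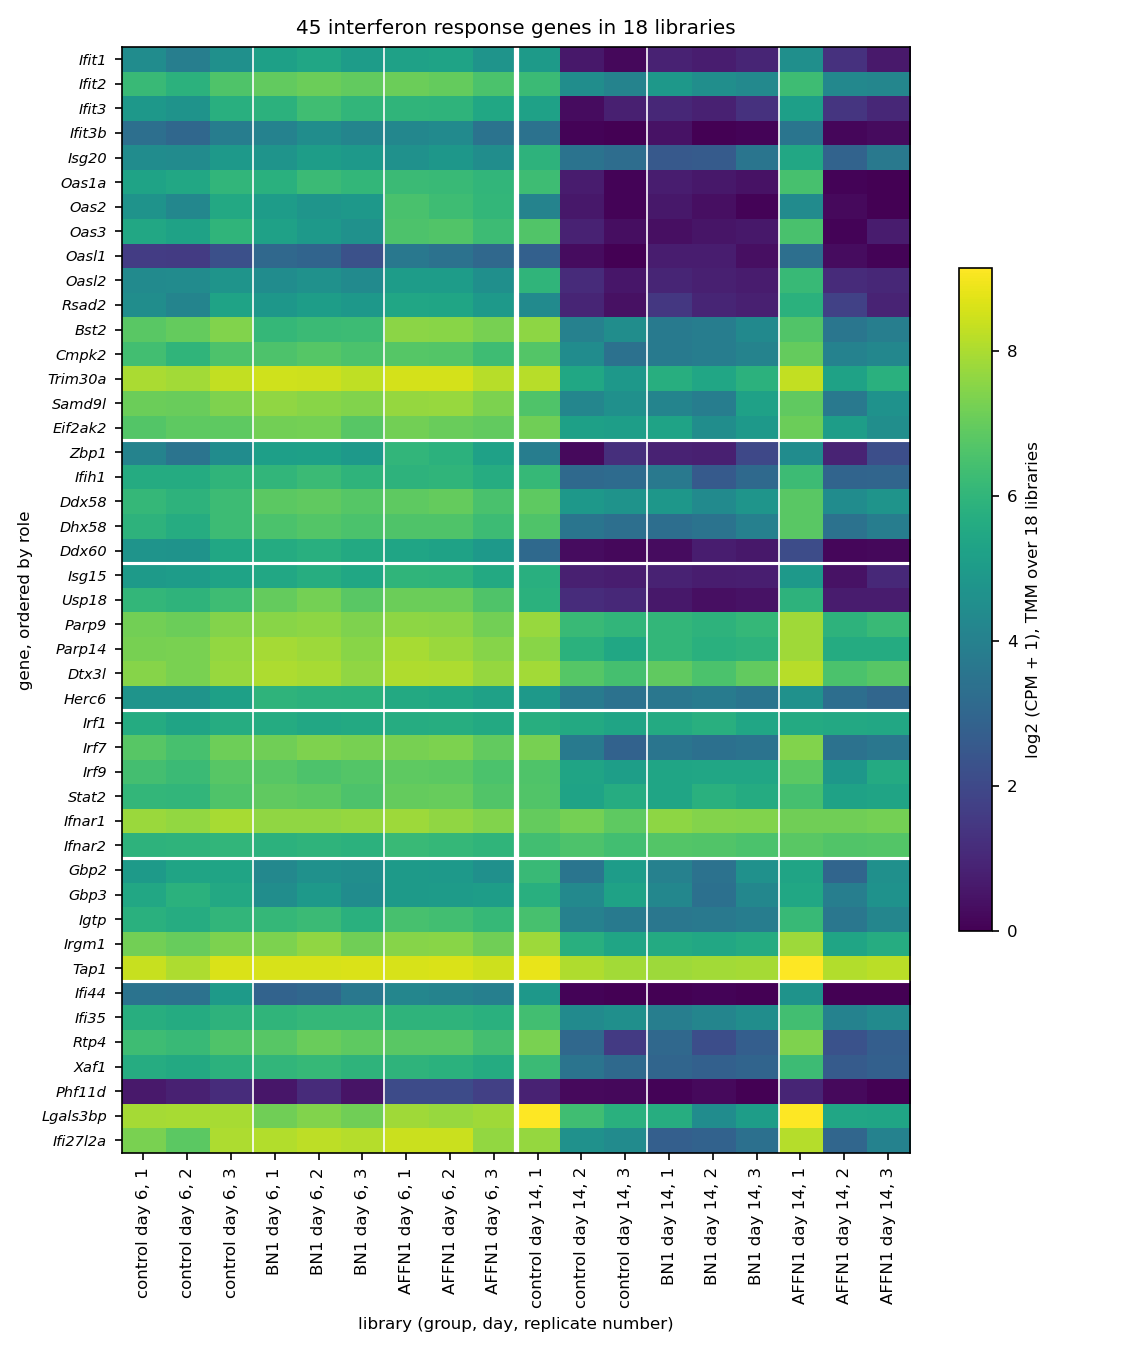
Levels of the 45 interferon response genes (top to bottom, ordered by role, with white lines between roles) in 18 libraries (left to right, by day, group and replicate number), as log2 of CPM plus 1 with TMM scaling over all libraries. The day 6 columns and the first control and first AFFN1 columns of day 14 are bright, and the other 7 day 14 columns are dark for most genes.

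On day 6 the interferon response genes were well expressed in all 9 libraries, with some spread inside each group. The median over the 45 genes was 62.4, 56.6 and 72.3 CPM in control libraries 1, 2 and 3. It was 72.7, 82.8 and 73.7 CPM in BN1 libraries 1, 2 and 3 and 102, 93.1 and 77.3 CPM in AFFN1 libraries 1, 2 and 3. Control library 3 was the highest control, and AFFN1 library 3 was the lowest of its group. The day 6 counts move with these libraries, as given beside each count below.

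BN1 cells on day 6 had more RNA of 9 interferon response genes and less of 5 others than control cells. Of all 12068 genes tested, 17.4% were called in this comparison at an adjusted p under 0.05 (8.83% higher and 8.53% lower), against 14 of the 45 interferon response genes (31.1%). The 9 that rose were Oasl1, Zbp1, Herc6, Ifit1, Usp18, Ddx58, Ifit2, Dhx58 and Rtp4, with log2 fold changes from 0.50 (Rtp4) to 1.19 (Oasl1). The 5 that fell were Gbp3, Bst2, Gbp2, Lgals3bp and Oas3, with log2 fold changes from -1.03 (Gbp3) to -0.69 (Oas3 and Lgals3bp). The median log2 fold change was 0.31 over the 45 and -0.02 over all genes tested. Beside the calls, 18 of the 45 had every BN1 library above every control library and 5 had every one below, against 17 and 16.9% of all genes tested.

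Among the antiviral effectors, Ifit1, whose protein binds viral RNA that lacks a host cap, stood at 23.6, 16.1 and 26.3 CPM in control cells and at 40.6, 46.3 and 36.6 CPM in BN1 cells. The groups did not overlap, and the log2 fold change was 0.90 ± 0.20 (SE; adjusted p = 0.0140). Ifit2, of the same family, was at 81.7, 65.8 and 110 CPM in control and 138, 151 and 136 CPM in BN1, again without overlap (log2 fold change 0.72, adjusted p = 0.0264). Bst2, or tetherin, holds budding virus at the cell surface. It moved the other way, from 127, 142 and 192 CPM in control to 74.7, 83.3 and 86.1 CPM in BN1 (log2 fold change -0.92 ± 0.15 (SE), adjusted p = 0.00234). Oas3, which makes the 2-5A messenger that activates RNase L, was at 48.9, 43.2 and 70.0 CPM in control and 41.1, 33.3 and 26.4 CPM in BN1. Its change was close to the threshold (log2 fold change -0.69, adjusted p = 0.0487).

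The sensors of foreign nucleic acid were higher in BN1 cells in 3 of 5 cases. Ddx58 encodes RIG-I, a sensor of viral RNA, and rose from 76.7, 66.8 and 86.9 CPM to 129, 134 and 119 CPM (log2 fold change 0.73 ± 0.13 (SE), adjusted p = 0.00391). Dhx58, whose product LGP2 modulates RIG-I and MDA5, rose from 66.5, 56.6 and 86.0 CPM to 106, 116 and 104 CPM (adjusted p = 0.0155). Zbp1, a sensor of Z-form nucleic acid, rose from 18.2, 11.8 and 23.3 CPM to 38.7, 40.5 and 33.4 CPM (log2 fold change 1.07 ± 0.25 (SE), adjusted p = 0.0183). None of the 3 had overlapping groups. The other two sensors were not called: Ifih1 (MDA5) had a log2 fold change of 0.31 and Ddx60 one of 0.65.

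Of the genes of ISG15 conjugation, Usp18, the protease that removes ISG15 and dampens signalling at IFNAR2, rose from 74.3, 69.6 and 88.8 CPM to 140, 167 and 125 CPM in BN1. Its log2 fold change was 0.89 ± 0.15 (SE; adjusted p = 0.00325). Herc6, the mouse ligase that attaches ISG15, rose from 29.3, 29.1 and 40.7 CPM to 68.8, 64.5 and 62.4 CPM (log2 fold change 0.98 ± 0.14 (SE), adjusted p = 0.000925). Isg15 itself was at 34.2, 36.8 and 43.7 CPM in control and 49.5, 57.4 and 47.4 CPM in BN1 and was not called (log2 fold change 0.43). Both called genes had every BN1 library above every control library. None of the 6 receptor chains and transcription factors was called: Stat2 had a log2 fold change of 0.52, Irf7 of 0.46, Irf9 of 0.20, Irf1 of -0.01, Ifnar1 of -0.15 and Ifnar2 of -0.08.

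Gbp3 and Gbp2, the guanylate-binding proteins of the list, went down in BN1. Gbp3 was at 49.9, 64.6 and 50.7 CPM in control and at 24.0, 33.4 and 23.2 CPM in BN1 (log2 fold change -1.03 ± 0.15 (SE), adjusted p = 0.00109). Gbp2 was at 35.0, 44.6 and 45.2 CPM in control and 20.5, 26.8 and 24.5 CPM in BN1 (log2 fold change -0.80 ± 0.15 (SE), adjusted p = 0.00543). These GTPases coat intracellular vacuoles and are induced most strongly by interferon gamma. Lgals3bp, a secreted glycoprotein that binds galectins, fell from 270, 280 and 275 CPM to 159, 191 and 161 CPM, with the smallest adjusted p of the 45 genes (0.000405). The 3 control libraries of this gene lay close together, and all 3 BN1 libraries lay below them.

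The count of called genes in BN1 depends on single control libraries. It was 8 without control library 1 and 34 without control library 3, and the share of all genes called moved with it, to 10.1% and 28.6%. Without the 3 libraries numbered 3, a choice made after the data were seen, 38 of 45 were called, 33 higher and 5 lower, against 32.2% of all genes. A list of immediate early and stress genes summed to 780 CPM in control library 3 and to 1739 CPM in BN1 library 3, against 351 to 431 CPM in the other 7 day 6 libraries (scaled over all 18 libraries). The part of these genes in the result was not tested.

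AFFN1 cells on day 6 had more RNA of 13 interferon response genes than the same control cells and less of 1, Gbp3. Of all 12068 genes tested 12.7% were called (7.79% higher and 4.87% lower), against 14 of the 45 (31.1%). Those that rose were Oasl1, Phf11d, Zbp1, Oas2, Oas3, Usp18, Ifit1, Isg15, Ddx58, Stat2, Dhx58, Igtp and Herc6, with log2 fold changes from 0.50 (Herc6 and Igtp) to 1.88 (Oasl1). The median log2 fold change over the 45 was 0.37. Both fusion comparisons use the same 3 control libraries, so their values stand side by side here and are not independent of each other.

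**Figure D2:**
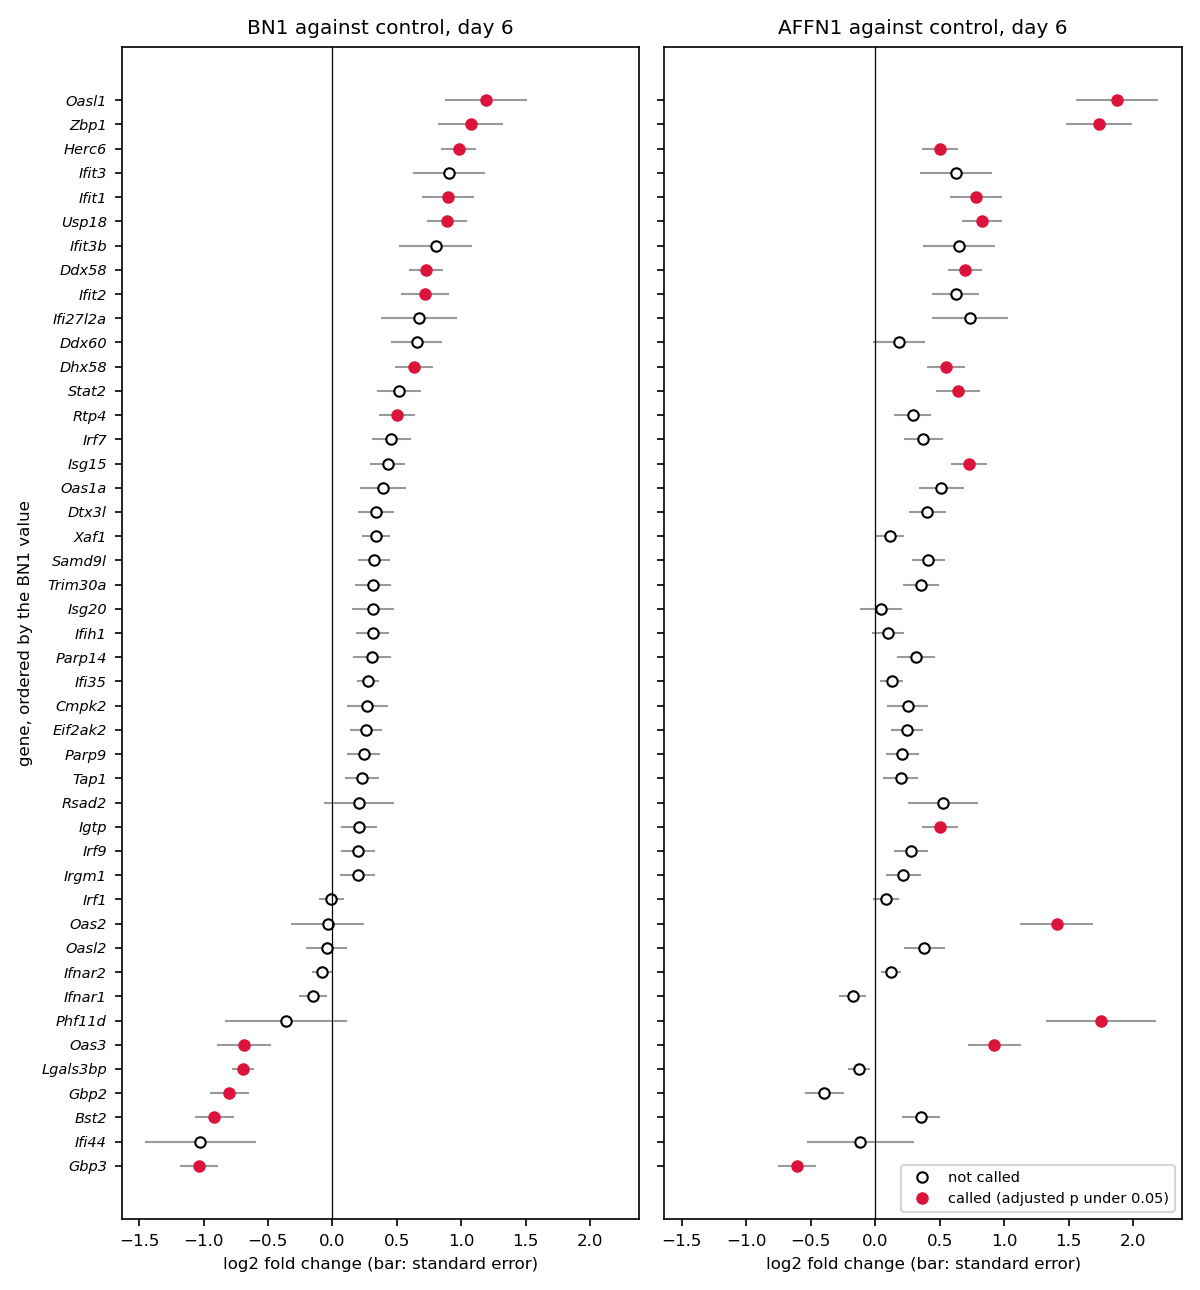
Log2 fold change (point) and standard error (bar) of each of the 45 genes on day 6, for BN1 against control on the left and AFFN1 against control on the right, with filled points for genes called at an adjusted p under 0.05. Oas2, Oas3 and Phf11d lie far to the right in AFFN1 and at or below 0 in BN1, and Gbp3 lies to the left in both.

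Members of the 2-5A synthetase family were among the genes that rose in AFFN1. Oas2 went from 28.4, 20.4 and 50.8 CPM in control to 102, 89.4 and 74.2 CPM (log2 fold change 1.41 ± 0.28 (SE), adjusted p = 0.0120). Oas3 went from 48.9, 43.2 and 70.0 CPM to 109, 114 and 85.1 CPM (log2 fold change 0.92 ± 0.21 (SE), adjusted p = 0.0164). Neither overlapped between the groups. Oasl1, a related protein that is known to limit IRF7 translation, went from 2.34, 2.27 and 4.24 CPM to 13.1, 11.3 and 8.5 CPM (adjusted p = 0.00399). Oas1a, by contrast, was at 43.2, 50.4 and 72.3 CPM in control and 83.7, 81.3 and 72.1 CPM in AFFN1, where the lowest AFFN1 library lay just below the highest control, and it was not called.

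Zbp1 was the sensor with the largest rise in AFFN1, to 71.3, 65.8 and 41.4 CPM (log2 fold change 1.74 ± 0.25 (SE), adjusted p = 0.00217). Usp18 reached 152, 153 and 110 CPM (log2 fold change 0.83, adjusted p = 0.00651), and Isg15 reached 70.1, 68.3 and 51.5 CPM (log2 fold change 0.73, adjusted p = 0.00719). In all of these the AFFN1 library numbered 3 was the lowest of its group and still above every control library. Stat2, a signalling factor downstream of the interferon receptor, rose from 73.2, 73.5 and 111 CPM to 143, 146 and 113 CPM, with the lowest AFFN1 library only just above the highest control (log2 fold change 0.64, adjusted p = 0.0364). Gbp3 fell to 34.6, 36.0 and 37.6 CPM (log2 fold change -0.61, adjusted p = 0.0229), and Gbp2, at 34.9, 34.0 and 25.8 CPM, was not called.

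The AFFN1 count was 7, 6 and 31 without control library 1, 2 and 3, against 8.36, 9.14 and 18.4% of all genes. It was 5 and 6 without AFFN1 library 1 and 2, against 6.02 and 6.1%. Without the 3 libraries numbered 3 it was 39, of which 38 were higher, against 32.1% of all genes. A list of 7 plasmacytoid dendritic cell markers, a cell type known for making interferon, summed to 304 to 441 CPM in the control libraries of day 6, 573 to 588 CPM in BN1 and 532 to 623 CPM in AFFN1 (scaled over all 18 libraries). Ccr9 was at 26.6 to 51.5 CPM in control, 295 to 338 CPM in BN1 and 244 to 344 CPM in AFFN1. Its rise was larger than that of the sum, so the other markers together did not rise. The defining markers Siglech and Klk1 were at 0 to 0.200 CPM and at 0 in all 9 libraries. In each library only 1 or 2 of the 7 markers had 0 reads, so the list as a whole was not absent. In sorted bulk cells, more cells with a gene on and more RNA of it per cell cannot be told apart.

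The fusions differed from each other on day 6 in 6 of the 45 genes (13.3%), close to the 11.2% of all genes called in that comparison (4.99% higher and 6.19% lower in BN1). Oas3 was at 41.1, 33.3 and 26.4 CPM in BN1 and 109, 114 and 85.1 CPM in AFFN1 (log2 fold change, BN1 over AFFN1, -1.61 ± 0.21 (SE), adjusted p = 0.000932). Bst2 was at 74.7, 83.3 and 86.1 CPM in BN1 and 213, 205 and 171 CPM in AFFN1 (-1.27 ± 0.15 (SE), adjusted p = 0.000462). Oas2 was at 36.4, 29.6 and 31.5 CPM in BN1, a log2 difference of -1.45 from AFFN1 (adjusted p = 0.0112). Each of these genes separated the fusions without overlap, as did Lgals3bp, at 260, 242 and 255 CPM in AFFN1 (log2 difference -0.56, adjusted p = 0.00185). Phf11d was low throughout, at 0.517, 1.35 and 0.446 CPM in BN1 and 3.67, 3.70 and 2.65 CPM in AFFN1 (log2 difference -2.11, adjusted p = 0.0115). Herc6 was the only gene of the list called higher in BN1 than in AFFN1 (log2 difference 0.48, adjusted p = 0.0496). Without the 3 libraries numbered 3 the count was 13, with 11 lower in BN1, against 14.4% of all genes.

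Other genes of the pathway were counted in lists outside the 45, and their medians stand beside -0.02 over all genes tested in both comparisons with control. Among 43 tested further interferon-induced genes, 11 were called higher and 4 lower in BN1 (median log2 fold change 0.27), and 14 higher and 1 lower in AFFN1 (0.31). The lower ones in BN1 included Ifitm1 (-2.07, adjusted p = 0.00222) and Ifitm2 (-1.58, adjusted p = 1.53e-06), membrane proteins that block virus entry. Of 10 further GTPases of the interferon gamma type, 2 were higher and 2 lower in BN1, and 2 higher and 4 lower in AFFN1. Gbp5 and Gbp7 were lower in both (Gbp5 -1.39 in BN1 and -1.23 in AFFN1). Of 18 receptors, kinases and factors outside the list, 0 were higher and 2 lower in BN1, namely Ifnlr1 (-2.09) and the feedback inhibitor Socs3 (-1.26). In AFFN1, 3 were higher and 1, Ifnlr1 (-1.36), was lower. Of 17 sensors and adaptors, 2 were higher and 2 lower in BN1, the latter the DNA sensors Aim2 (-2.11) and Tlr9 (-1.04), while 4 were higher in AFFN1, of which Samhd1, a dNTP-degrading restriction factor, changed most (1.57, adjusted p = 9.61e-05). Of 18 genes of class I antigen presentation, 1 was higher and 2 were lower in BN1 and 1 was higher in AFFN1, against 17.4 and 12.7% of all genes called.

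On day 14 the interferon response genes split the libraries in a way the groups did not. They were high in control library 1 and AFFN1 library 1 and low in the other 7 libraries, BN1 library 1 included. In the sample descriptions the libraries numbered 1, 2 and 3 carry the codes 0716, 0730 and 0802, 1 of each in every group. The labels do not say what the codes are. The 2 high libraries therefore share a code with BN1 library 1, in which the genes were low.

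**Figure D3:**
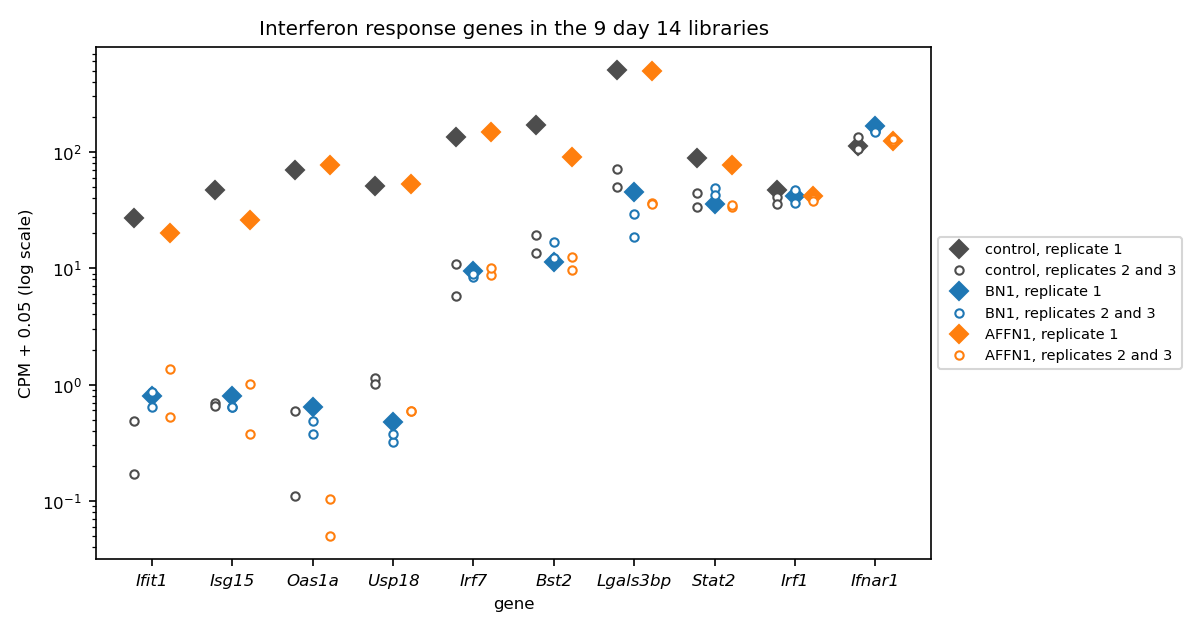
Levels of 10 interferon response genes in the 9 day 14 libraries, as CPM plus 0.05 on a log axis, with diamonds for replicate 1 (code 0716) and open circles for replicates 2 and 3. The control and AFFN1 diamonds stand above all other points for 8 of the genes, and not for Irf1 and Ifnar1.

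Isg15 was at 47.3, 0.647 and 0.598 CPM in control libraries 1, 2 and 3 and at 26.0, 0.325 and 0.960 CPM in AFFN1, while the BN1 libraries had 0.754, 0.596 and 0.597 CPM. Ifit1 was at 27.2, 0.431 and 0.120 CPM in control, 19.9, 1.30 and 0.480 CPM in AFFN1 and 0.754, 0.596 and 0.814 CPM in BN1. Usp18 was at 50.7, 1.08 and 0.956 CPM in control, 52.5, 0.542 and 0.540 CPM in AFFN1 and 0.431, 0.271 and 0.326 CPM in BN1. In each of these genes, the 2 high libraries had levels of the order of those in the day 6 control cells, and the others had 1.30 CPM or less. Irf7, the factor that amplifies the interferon response, was at 135, 10.9 and 5.68 CPM in control, 149, 8.67 and 10.0 CPM in AFFN1 and 9.42, 8.35 and 8.84 CPM in BN1.

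A library was compared with the mean of the other two of its group, after adding 0.5 CPM to each, and counted where it was more than 4-fold higher. In control library 1 this held for 27 of 41 tested interferon response genes (65.9%) and for 97 of all 11657 genes tested (0.832%). In AFFN1 library 1 it held for 30 of 41 (73.2%), against 0.798% of all genes, and in BN1 library 1 for 0 of 41, against 0.0343%. The median ratios over the 41 were 6.50, 6.43 and 1.05. Ifit3b, Oas2, Ifi44 and Phf11d did not pass the filter on low counts on day 14, and 4 more, Oas1a, Oas3, Oasl1 and Ddx60, would not have passed without the code 0716 libraries. Over the 37 genes that pass without them, the counts were 23 in control library 1 and 26 in AFFN1 library 1. The median ratios over these 37 were 6.07 and 4.92.

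The rise in these 2 libraries left out some genes. Ifnar1 was at 113, 133 and 106 CPM in control and 124, 125 and 130 CPM in AFFN1, and Ifnar2 at 73.1, 84.6 and 74.5 CPM and 97.1, 89.2 and 89.8 CPM, with library 1 inside or close to the range of the others. Irf1, a factor induced most by interferon gamma, was at 47.0, 40.9 and 35.7 CPM in control and 41.3, 39.7 and 38.0 CPM in AFFN1. Ddx60 was raised only in part, at 6.91 CPM in control library 1 and 2.95 CPM in AFFN1 library 1, against 28.5 to 59.8 CPM on day 6. Lgals3bp was raised beyond day 6, at 504 and 498 CPM against 159 to 280 CPM there. Of the other lists, more than 4-fold higher levels in control library 1 and AFFN1 library 1 were seen in 13 and 15 of 40 further interferon-induced genes, 5 and 5 of 10 further GTPases, and 0 and 0 of 18 class I genes. Yet 14 and 16 of the class I genes were highest in these libraries within their group, with median ratios of 1.53 and 1.45. Of 18 receptors, kinases and factors, 1 and 1 were more than 4-fold higher (median ratios 1.02 and 0.92). Of 17 sensors and adaptors, 1 and 1 were (1.17 and 1.08).

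Of the marker lists, only the B-lineage and stress lists were below the other 7 day 14 libraries in both high libraries, the stress list by little. A list of 5 blood cell identity genes summed to 485 CPM in control library 1, below the 667 to 1209 CPM of all other day 14 libraries, and to 809 CPM in AFFN1 library 1 (CPM scaled over all 18 libraries, as for the other lists). The monocyte and macrophage list was also lowest in control library 1, at 15.0 CPM against 19.1 to 62.4 CPM in the others, and was 21.9 CPM in AFFN1 library 1. The plasmacytoid dendritic list summed to 393 CPM in control library 1, against 365 and 396 CPM in the others of its group, and to 527 CPM in AFFN1 library 1, against 339 and 375 CPM. Siglech did not pass 0.162 CPM in any day 14 library, and Klk1 was at 0, while only 1 or 2 of the 7 markers had 0 reads in each library. The stress list summed to 294 and 287 CPM in these libraries, below the 298 to 463 CPM of the other 7. The B-lineage list was lowest in library 1 of every group, at 6251, 9410 and 7177 CPM in control, BN1 and AFFN1 library 1, and both high libraries lay below the 8114 to 12578 CPM of the other 7. The part of these lists in the result was not tested.

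No interferon response gene was called between BN1 and control on day 14, where edgeR called 0.0257% of all genes. At an unadjusted p under 0.05 there were 2 of 41, Gbp3 and Ifnar1, against 20.2% of all genes, and DESeq2 called 1 (6.37% of all genes). The median log2 fold change was -1.68 with all libraries and -0.06 without the code 0716 libraries, where again 0 of 37 were called (0.154% of all genes). Libraries with the same number deviated together on day 14, so the fit with the number as a block is given too. It called Gbp3 lower (log2 fold change -1.23 ± 0.17 (SE), adjusted p = 0.00854) and Ifnar1 higher (0.41 ± 0.12 (SE), adjusted p = 0.0479), 2 of 41 against 11.6% of all genes. With the block and without code 0716 the called genes were 3, all lower in BN1, against 5.07% of all genes. Gbp3 was at 16.8 and 33.8 CPM in control libraries 2 and 3 and 8.40 and 15.7 CPM in BN1 (log2 fold change -1.06, adjusted p = 0.00257). Lgals3bp was at 71.6 and 49.7 CPM against 18.5 and 29.0 CPM (-1.36, adjusted p = 0.00263). Ifi27l2a, a small mitochondrial protein induced by type I interferon, was at 21.2 and 18.1 CPM against 5.64 and 8.19 CPM (-1.56, adjusted p = 0.00314). These 3 were lower in BN1 in both remaining numbered pairs.

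For AFFN1 against control on day 14, edgeR called 0 of 41 interferon response genes (0.0429% of all genes). It called 0 with the block as well (0.558% of all genes), and 1 gene had an unadjusted p under 0.05 (6.19% of all genes). The median log2 fold change was 0.02 with all libraries and -0.04 without code 0716, where 0 of 37 were called (0.0939% of all genes). With the block and without code 0716, Ifi27l2a alone was called (-1.07, adjusted p = 0.0496; 2.25% of all genes), from 21.2 and 18.1 CPM in control to 6.18 and 13.8 CPM. Between the fusions on day 14, edgeR called 0 of 41 and 0 of all genes tested, and 2 of the 41 had an unadjusted p under 0.05 (8.51% of all genes). The median log2 fold change of BN1 over AFFN1 was -1.43 with all libraries and -0.07 without code 0716. The block called 0 (0.18% of all genes), and 0 without code 0716 (1.06%). For these comparisons, p-values that miss the threshold do not show that the groups are alike.

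Across days, most interferon response genes were lower on day 14 than on day 6 in every group once the code 0716 libraries were left out. Descriptions are written in one style on day 6 and in another on day 14, and the day cannot be told apart from the experiment. In control cells, 3 of 45 genes were called with all libraries (43.9% of all genes): Ddx60 (-3.51) and Ifnar1 (-0.74) were lower and Ifnar2 (0.50) was higher. Without control library 1 of day 14 the count was 32 (41.1% of all genes), and without the 3 code 0716 libraries it was 41, with 40 lower and 1 higher, against 44.4% of all genes (20.9% lower). The median log2 fold change was then -2.44 over the 45 and -0.02 over all genes. With the replicate block, 27 were called (50.9% of all genes) with all libraries and 43 without code 0716 (48%). That block takes what libraries of one number share out of the error, which for a contrast of days makes the error smaller than the spread between the libraries of a day. It covers the numbers of both days, although those of day 6 do not pair libraries. All 45 passed the filter through their day 6 levels. Of the 37 that also passed on day 14 without code 0716, 32 were lower and 1 was higher in control cells.

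**Figure D4:**
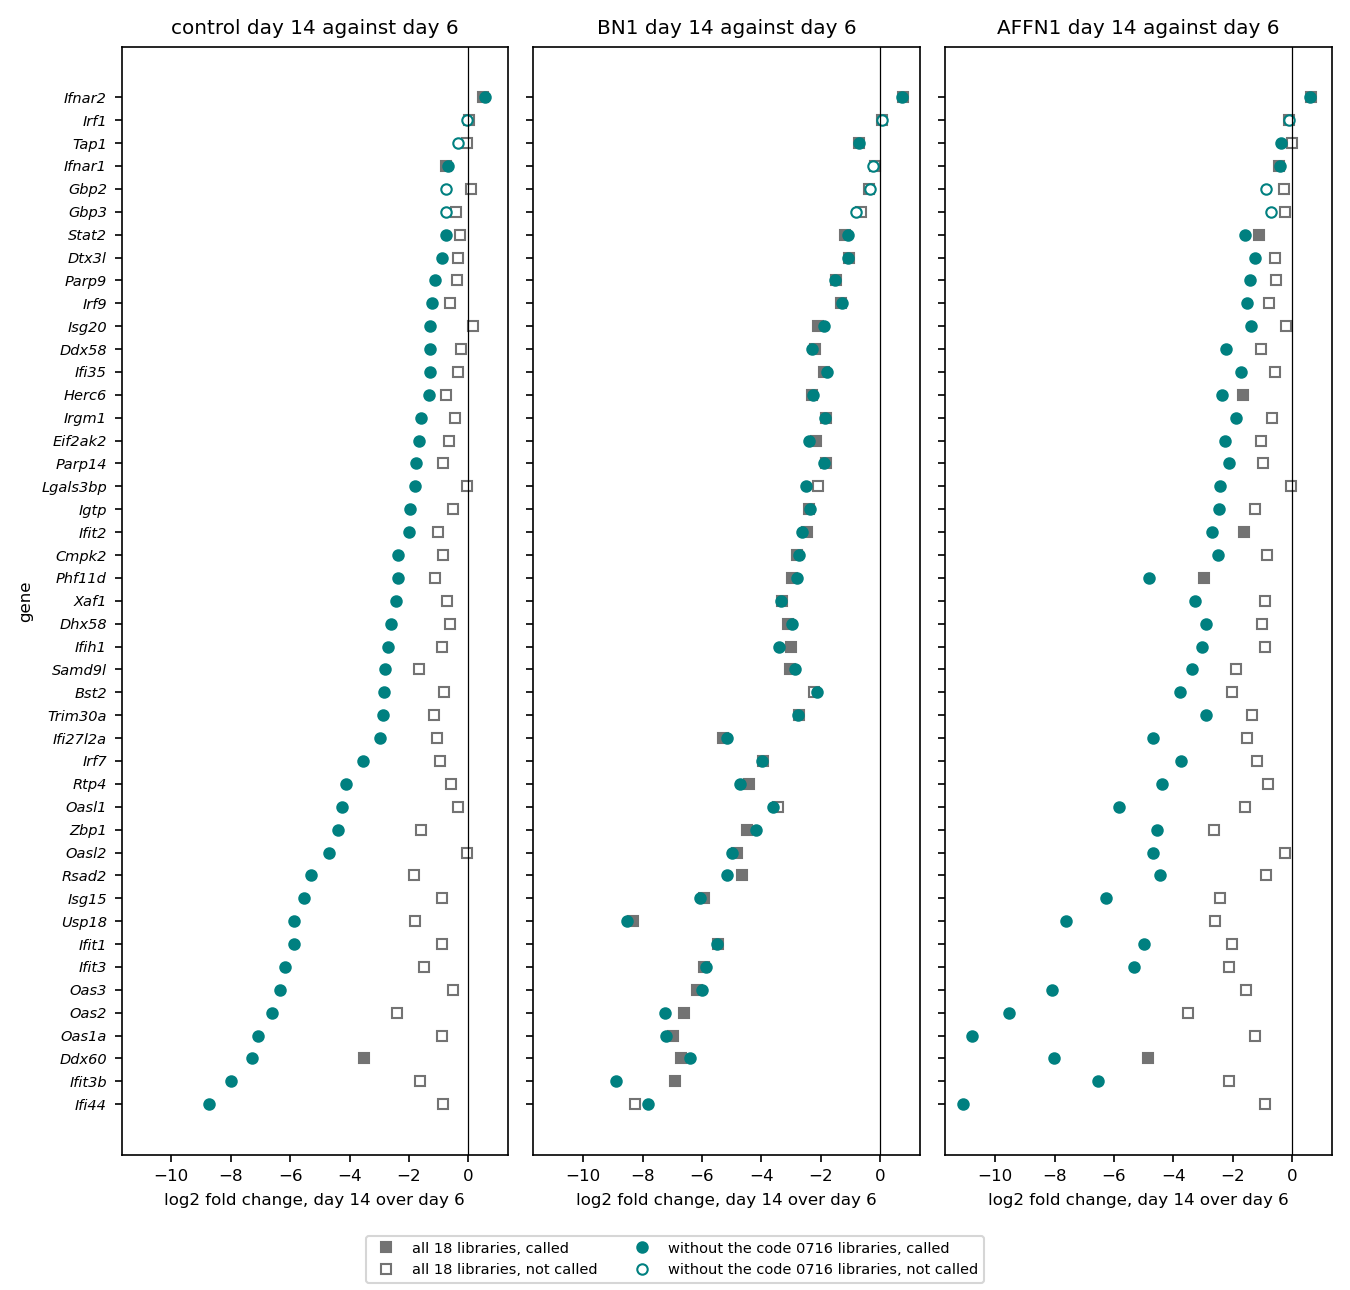
Log2 fold change of day 14 over day 6 for each of the 45 genes in control, BN1 and AFFN1 cells, with squares for the fit of all 18 libraries and circles for the fit without the 3 code 0716 libraries, filled where called. The circles lie well to the left of the squares in control and AFFN1 and on top of them in BN1. On this wide axis Irf1, Ifnar1 and Ifnar2 lie near 0 in all 3. Ifnar1 (lower) and Ifnar2 (higher) were still called in control cells.

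The drop was seen from effectors to signalling genes. In the control libraries 2 and 3 of day 14, Ifit1 was at 0.431 and 0.120 CPM, against 16.1 to 26.3 CPM in the control cells of day 6. Without code 0716 its log2 fold change was -5.88 ± 0.46 (SE; adjusted p = 5.8e-07), that of Isg15 was -5.55 ± 0.29 (SE; adjusted p = 6.93e-09) and that of Usp18 -5.87 ± 0.23 (SE; adjusted p = 5.4e-10). Among the factors that carry the signal, Irf7 fell by 3.55, Irf9 fell by 1.24 and Stat2 fell by 0.77 on the log2 scale (all called). Irf1 (-0.06), Gbp2 (-0.75), Gbp3 (-0.75) and the peptide transporter Tap1 (-0.36) were not called. Ifnar1 dropped by 0.69 and Ifnar2 rose by 0.56, so the receptor chains changed in opposite directions. Without code 0716, 29 of 43 further interferon-induced genes, 8 of 10 further GTPases and 10 of 18 class I genes were also called lower in control cells. Of all genes, 20.9% were called lower there. Only 40 further interferon-induced genes were tested within day 14, so some of the 43 entered this fit through their day 6 levels.

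In BN1 cells, which had no high library on day 14, the drop was called with all libraries. This comparison and that in AFFN1 were added after the data were seen. In BN1, 37 of 45 were called, 36 lower and Ifnar2 higher (0.74), against 48.2% of all genes. Of the 37 that pass on day 14 without code 0716, 30 were called lower and 1 higher. Of the 45, 42 genes had every day 14 library below every day 6 library (31.8% of all genes). That count was not made over the 37, and the genes outside the 37 entered through their day 6 levels. The count was 21 and 17 without BN1 library 1 and 2 of day 14 (40.8 and 39.8% of all genes), 41 without code 0716 (46.4% of all genes) and 42 with the block (54.4%). Irf7 was at 161, 187 and 173 CPM in BN1 on day 6 and at 9.42, 8.35 and 8.84 CPM on day 14 (log2 fold change -3.94 ± 1.20 (SE), adjusted p = 0.0164). In AFFN1, 7 were called with all libraries (47.8% of all genes), 40 without AFFN1 library 1 (46.3%), 42 without code 0716 (48.6%) and 38 with the block (54.2%). Of the same 37 genes, 4 were lower and 1 higher with all libraries, and 33 were lower and 1 higher without code 0716.

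Whether a fusion's difference from control changed between the days was tested directly. With all 18 libraries edgeR called 0 of the 45 for BN1 (2.97% of all genes) and 0 for AFFN1 (1.46%). At an unadjusted p under 0.05 there were 10 and 0, against 13 and 9.71% of all genes, and DESeq2 called 2 for BN1 (4.81% of all genes). Without control library 2 of day 14 the BN1 count was 1 (again 2.97% of all genes). With the replicate block 4 were called for BN1, Ifi44, Usp18, Ifit3b and Oas2, all with a lower effect on day 14 (5.16% of all genes), and 0 for AFFN1 (2.54%). Of these, Ifi44, Ifit3b and Oas2 did not pass the filter within day 14 and entered this fit through their day 6 levels, which leaves Usp18. Without code 0716 the BN1 effect was lower on day 14 for 5 genes (3.3% of all genes): Usp18 (-2.67 ± 0.43 (SE), adjusted p = 0.00185), Ifi27l2a (-2.20), Ddx58 (-1.01), Herc6 (-0.97) and Xaf1 (-0.91), as log2 differences between the effects. The AFFN1 effect was lower for 2 (1.92% of all genes), Usp18 (-1.73, adjusted p = 0.0354) and Herc6 (-1.05, adjusted p = 0.0494). Usp18 was called in both: on day 6 it was above control in both fusions, and in libraries 2 and 3 of day 14 it was at 0.271 and 0.326 CPM in BN1 and 0.542 and 0.540 CPM in AFFN1, below the 1.08 and 0.956 CPM of control.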

How the data were processed

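The authors deposited 1 table of expected counts per gene for the 18 libraries of poly(A) RNA, made with a stranded kit per the labels' protocols. STAR, RSEM, DESeq2 and mm10 are named in the submitters' processing notes, with no version, and the annotation and strand setting were not given in the sources used here. The 1.74 to 2.12% of values per library that were not whole were rounded. In R 4.3.3, edgeR 4.0.16 (filterByExpr, TMM, robust quasi-likelihood test) was fitted to all genes, on 9 libraries within a day and 18 across days. Genes were called at a Benjamini-Hochberg adjusted p under 0.05, over 11 comparisons. Alternatives were DESeq2 1.42.0, other scaling and filters, a replicate block and left-out libraries. Scripts were tested on simulated data. No 2 libraries of a group agreed within counting noise.

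The genes and lists were chosen with earlier results of these data known. Every called gene of the list could be named, with values in every library for a limited number per comparison, smallest adjusted p first, and for a fixed set that includes Ifit1, Isg15, Irf7 and Usp18. Same-numbered libraries of day 14 correlated in their deviations from group means at 0.29 to 0.61 (9 pairs), others at -0.50 to 0.01. The shared codes and this check are why the block is given there. On day 6 the same values were -0.32 to 0.35 and -0.36 to 0.40, so those numbers do not pair libraries. In the fits of all 18 libraries, for the days and the changed effects, the block still included the day 6 numbers.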

Additional observations from a re-analysis of the deposited data

How the results depend on the processing

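Another scaling (RLE) and no filter on low counts moved no count of called genes by over 1.5 times. The choice of tool, the block and single libraries did, and the cause was not tested. DESeq2 called 23 for BN1 against control on day 6 (21.8% of all genes) and 1 on day 14 (6.37%). For the change of the BN1 effect DESeq2 called 2 (4.81%). Leaving out 1 library gave 8 to 34 called genes for BN1 and 5 to 31 for AFFN1 against control on day 6, while the share of all genes called ran from 9.31 to 28.6% and from 6.02 to 18.4%. It gave 3 to 32, 17 to 32 and 5 to 40 for day 14 against day 6 in control, BN1 and AFFN1. The shares of all genes called there were 37 to 41.1, 39.6 to 43.7 and 39.5 to 46.3%, and the lowest counts lie below them. For the change of the BN1 effect leaving out 1 library gave 0 to 1 (2.08 to 2.97% of all genes). Without the 3 day 6 libraries numbered 3 (chosen after seeing the data), the day 6 counts were 38, 39 and 13. The shares of all genes were 32.2, 32.1 and 14.4%. Without only control and AFFN1 library 1 of day 14, the counts across days were 41 in control (44.3% of all genes) and 42 in AFFN1 (48.5%). They were 5 for the change of the BN1 effect (3.93%) and 2 for that of the AFFN1 effect (1.9%). These counts equal those without all 3 code 0716 libraries.

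With the replicate block, 9 genes were called for AFFN1 against control on day 6 (11.2% of all genes), where the numbers do not pair the libraries. The block gave 2 for BN1 against control on day 14 (11.6% of all genes) and 4 for the change of the BN1 effect (5.16%). Across days it gave 27 in control (50.9%) and 38 in AFFN1 (54.2%). With the block and without number 1 of day 14, the counts against control were 3 for BN1 (5.07% of all genes) and 1 for AFFN1 (2.25%). Across days they were 43 in control (48%) and 44 in AFFN1 (52.2%). For the changed effects of BN1 and AFFN1 they were 4 (4.43%) and 2 (3.01%). With the block and without number 2 or 3, the counts were 2 and 2 for BN1 against control. For BN1 against AFFN1 the count was 1 without number 2. Across days they were 12 and 18 in control and 21 and 26 in AFFN1, and 6 and 9 for the change of the BN1 effect. The shares of all genes without number 2 or 3 are not given here, so these counts cannot be set against them. No called value reversed its direction in these settings. Depth limits the low side of day 14, where many of the genes rest on a few reads per library.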

Other observations

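Genes upstream of the response moved both ways between the days. In control cells without the code 0716 libraries, 8 of 17 sensors and adaptors were called higher and 5 lower on day 14 than on day 6. Of all genes, 23.5% were called higher and 20.9% lower, so the lower count is near the share of all genes. The higher ones included Tmem173, which encodes STING (log2 fold change 1.17, adjusted p = 0.000402), and the lower ones the RNA sensor Tlr7 (-1.87, adjusted p = 1.56e-06) and the DNA sensor Aim2 (-1.82, adjusted p = 2.67e-05). Of 18 receptors, kinases and factors outside the list, 8 were higher, among them Irf2, a repressor of interferon-induced genes (1.02, adjusted p = 5.88e-06), and 4 were lower, among them Ifnlr1, a chain of the interferon lambda receptor (-1.3, adjusted p = 0.00057). The 4 lower ones are likewise near the share of all genes.

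Some of these genes shared the day 14 pattern and some did not, as CPM scaled over all 18 libraries. Tlr7 was at 63.2 CPM in control library 1 and 104 CPM in AFFN1 library 1, against 5.94 to 16.8 CPM in the other 7 libraries. Aim2 was at 6.11 and 8.91 CPM in the same libraries, the lowest of their groups. The chemokine gene Cxcl10, a common marker of interferon exposure, stayed at or below 0.610 CPM in all 18 libraries and was listed at 0 in both high ones.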
